A study of Mus musculus with 2 samples.

Results

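The chaperonin TRiC, also called CCT, is the folding machine of the eukaryotic cytosol, and its 8 subunit genes Tcp1, Cct2, Cct3, Cct4, Cct5, Cct6a, Cct7 and Cct8 are described here in ribosome footprints of the newborn mouse brain. The genes were picked by name: the symbol is the transcript name without its trailing number, and all 8 were found among 45578 genes of the table. Ribosome profiling sequences the mRNA fragments left inside ribosomes after digestion, here from pooled polysome fractions, so a gene's count follows the number of ribosomes on its transcripts. The data come from 2 samples of 1 group, biological replicates 1 and 2, each a control brain at postnatal day 5 from the Taiwanese line (Smn+/-; SMN2tg/0) on a congenic FVB background. Every animal thus lacked 1 working copy of mouse Smn and carried the human SMN2 transgene, and no other genotype was analysed here.

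TRiC is built from stacked rings that close over an unfolded protein in a cycle driven by ATP. Each ring holds 1 copy of each of the 8 related subunits in a fixed order, so an assembled particle needs all of them in equal amounts. Its best known clients are actins, tubulins and proteins with beta-propeller folds, which newborn neurons make in large amounts as axons and dendrites grow. Prefoldin, a smaller hetero-oligomer, hands actin and tubulin chains to the chaperonin, and phosducin-like proteins act as its cofactors.

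The libraries held 1866831 footprints in replicate 1 and 5261878 in replicate 2, a ratio of 2.82, and their number limits every spread below to a pair of values. Smn1 had 71 footprints in replicate 1 and 253 in replicate 2. Every marker listed for neurons, astrocytes, oligodendrocytes, microglia and endothelium were found in both libraries, with sums per cell type from 108 to 6217 CPM (counts scaled to a common library total). Liver markers had no footprint in either library, and the 3 skeletal muscle markers summed to 77.1 and 54.7 CPM. The red cell markers Hbb-bs and Hba-a1 summed to 1488 CPM in replicate 1 and 1038 in replicate 2. A brain lysate mixes all cell types, so fewer cells of a type and less RNA per cell cannot be told apart in any value below.

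The subunit genes lie on different chromosomes, and RefSeq promoter sequence (assembly GRCm38.p6) was matched for 7 of the 8, all but Cct4. The 250 bases before the start site are shown for Cct8 and Cct2, the genes with the highest and the lowest footprint density, and for Cct7, the gene that differed most between the replicates. Capitals mark the motifs searched, each on both strands, and motifs may overlap. They were CCAAT as the CCAAT box, GGGCGG as the core of the GC box, CCGGAAG as an ETS core, TTCNNGAA with its mirrored form GAANNTTC as heat shock repeats, and finally TATAAA as the TATA box. Where RefSeq gives a second start (Cct2 and Cct5), the stretch at the start of the gene was used. The Cct8 stretch is chr16:87495870-87496119 on the minus strand, that of Cct2 is chr10:117063853-117064102 on the minus strand, and that of Cct7 is chr6:85451255-85451504 on the plus strand.
Cct8: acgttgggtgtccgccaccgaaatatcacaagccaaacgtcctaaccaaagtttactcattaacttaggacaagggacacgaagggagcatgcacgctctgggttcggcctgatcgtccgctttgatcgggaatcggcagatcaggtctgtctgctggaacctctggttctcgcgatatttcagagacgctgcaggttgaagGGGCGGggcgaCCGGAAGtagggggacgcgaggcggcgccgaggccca
Cct2: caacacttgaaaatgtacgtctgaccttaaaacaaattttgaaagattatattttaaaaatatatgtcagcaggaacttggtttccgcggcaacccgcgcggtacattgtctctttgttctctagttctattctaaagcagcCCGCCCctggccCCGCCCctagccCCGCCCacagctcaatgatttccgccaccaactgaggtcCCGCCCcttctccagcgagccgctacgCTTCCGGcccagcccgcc
Cct7: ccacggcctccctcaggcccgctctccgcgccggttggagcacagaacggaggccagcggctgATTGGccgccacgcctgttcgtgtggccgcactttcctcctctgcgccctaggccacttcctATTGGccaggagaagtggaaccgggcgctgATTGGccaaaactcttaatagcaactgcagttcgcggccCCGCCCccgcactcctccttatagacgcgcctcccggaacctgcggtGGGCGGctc

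The letters GGGCGG, a core bound by Sp1-type factors, were present in all 7 stretches, against 32.7% of 32851 RefSeq promoter stretches of the same length. Cct2 held 4 copies, Cct6a and Cct7 2 each, and Tcp1, Cct3, Cct5 and Cct8 1 each. CCAAT was present in Tcp1, Cct3, Cct6a and Cct7, against 33.8% of all promoters, with 3 copies in Cct7. CCGGAAG was present in Cct2 and Cct8, the genes at either end of the density order, against 6.91% of all promoters. TTCNNGAA, a repeat of the kind bound by heat shock factor, was present in Cct5 alone, against 7.17%. GAANNTTC was found in none of the 7 stretches, against 6.69%. The TATA box letters TATAAA were also found in none, against 12.4%. The shares over all promoters include second starts. The second start of Cct5, left out here, held neither GGGCGG nor TTCNNGAA, and that of Cct2 held 1 GGGCGG and 1 GAANNTTC. The median GC content was 58.0% for the subunit genes, from 45.2% for Cct5 to 66.4% for Cct7, and 52.4% over all promoters. These matches describe letters in a window, and no binding or mRNA data bear on them here.

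The comparison made among the subunits asks whether the subunits of this equimolar machine were translated in equal amounts. Counts of all transcripts of a gene were summed, expressed as CPM, and divided by the longest annotated coding sequence in kilobases; this value is called the footprint density. Cct6a has no annotated coding sequence in the table, so the length of its transcript Cct6a-201, 1599 nucleotides, stood in. The 8 genes are nearly equal in this length, from 1599 to 1671 nucleotides, but the order still shifted with the length used. With the coding length of the most abundant coding transcript, the mean density of Tcp1 was 272.2, beside 272.3 for Cct8. With whole transcript lengths Cct6a was highest.

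The 8 subunits were translated at similar and high levels. Together they took 0.284% ± 0.00289 of all footprints (SD, n = 2), with 5269 footprints in replicate 1 and 15066 in replicate 2. The median density of the 8 was 219 in replicate 1 and 228 in replicate 2, or 224 ± 6.44 (SD, n = 2), while 13349 coding genes with mean counts of 10 or more had medians of 22.02 and 24.6. By mean density the subunits lay between percentile 88.9 and percentile 95.6 of those coding genes.

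**Figure D1:**
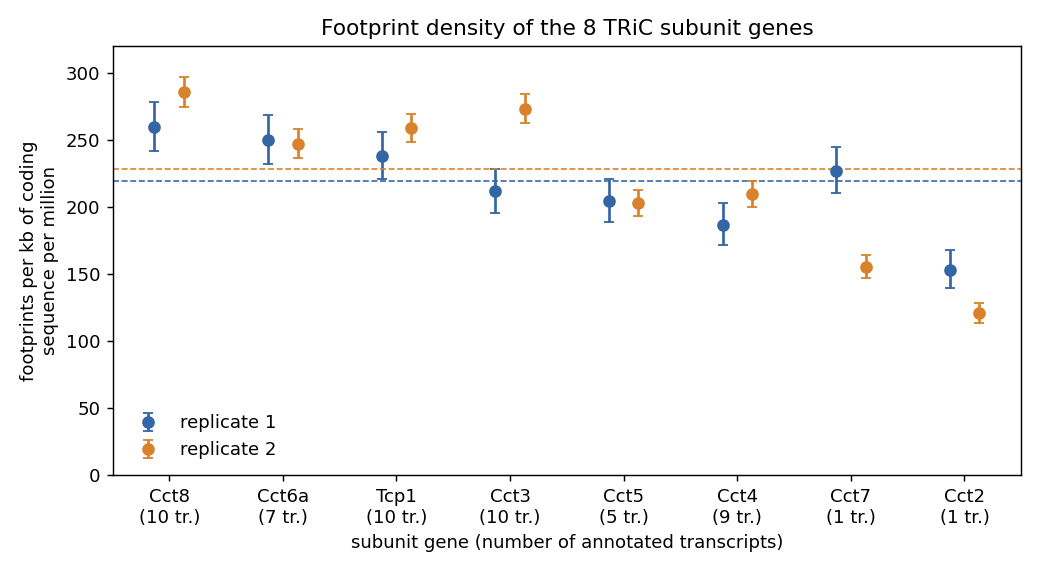
Footprint density (CPM per kilobase of coding sequence) of each subunit gene in both replicates, ordered by mean density; bars are exact Poisson 95% intervals for counting error, dashed lines are the median of the 8 in each replicate, and the number of annotated transcripts stands under each name. Cct8 is highest and Cct2 lowest in both replicates, and the orange points of Cct7 and Cct2, the genes with 1 transcript, lie below their blue ones.

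Cct8, the theta subunit, had the highest density, 259 in replicate 1 and 285 in replicate 2, from 797 and 2473 footprints, with 95% exact Poisson intervals of 242 to 278 and 274 to 297. Cct6a, the zeta subunit, followed at 250 and 247, from 746 and 2080 footprints. Tcp1, the alpha subunit and the founding member, named for the mouse t-complex, had 238 and 259, from 742 and 2274 footprints. These were the leading 3 by mean density, and each lay above the median of the 8 in both replicates. Cct3, the gamma subunit, had 212 and 273, from 647 and 2355 footprints, so it moved from below the median of the 8 in replicate 1 to the second rank in replicate 2.

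The lower members were Cct5, Cct4, Cct7 and Cct2. Cct5, the epsilon subunit, whose human gene is mutated in a sensory neuropathy, had 204 and 203, from 620 and 1735 footprints. Cct4, the delta subunit, mutated in a rat sensory neuropathy, had 186 and 210, from 564 and 1787 footprints. Both lay a little under the median of the 8 in both libraries. Cct7, the eta subunit, had 227 and 156, from 693 and 1338 footprints, so it ranked 4 in replicate 1 and 7 in replicate 2. Cct2, the beta subunit, had 153 and 121, from 460 and 1024 footprints, with intervals of 140 to 168 and 114 to 129, and was lowest in both when the counts of all transcripts were summed. The place of Cct2 turns on that sum, since it has 1 annotated transcript and most other subunits have 5 to 10. With coding transcripts only, each scaled to the library total of such transcripts, the mean density of Cct2 was 172, above Cct5 at 163 and Tcp1 at 167. In this setting, coding transcripts are all with an annotated coding sequence, including those marked for nonsense-mediated decay. With each gene's highest transcript alone it was 267, the second highest of the 8 after Cct7 at 371. That setting keeps all footprints of Cct2 and Cct7. Of the other subunits it keeps a part, from 17.7% for Cct3-001 to 48.7% for Cct5-001. The rise of Cct2 and Cct7 is built into it, so it cannot place Cct2.

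In the order of mean density, neighbours mostly could not be told apart by the replicate values. The replicate values of Cct6a and Tcp1, Tcp1 and Cct3, Cct5 and Cct4, and Cct4 and Cct7 overlapped, while those of Cct8 and Cct6a, Cct3 and Cct5, and Cct7 and Cct2 did not. Of the 28 pairs of subunits, 21 stood in the same order in both replicates, and the values of 20 did not overlap. By counting error alone, the 95% intervals were separate for 16 pairs in replicate 1 and 24 in replicate 2, the deeper library.

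Expressed as a share of the summed density of the 8, where equal synthesis would give 12.5% to each, the result does not depend on library scaling. Cct8 took 15.6% ± 0.910 (SD, n = 2), Cct6a 14.3% ± 0.247, Tcp1 14.3% ± 0.705 and Cct3 13.9% ± 2.37. Cct5 took 11.7% ± 0.172, Cct4 11.4% ± 0.830, Cct7 11.0% ± 3.01 and Cct2 7.88% ± 1.38. Only Cct2 was more than 0.5 below the median of the 8 on the log2 scale in both replicates, at -0.52 and -0.92. Cct7 passed that distance in replicate 2, at -0.55, but stood at 0.05 in replicate 1. This deviation of Cct2 holds for summed transcripts: with coding transcripts only it stood at 172 against a median of 186. With the highest transcript alone it stood at 267 against 131, a setting that favours genes with 1 transcript by construction. For the other 6 subunits, again with summed transcripts, the largest distance was 0.32, that of Cct8 in replicate 2.

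The highest density was 1.69 times the lowest in replicate 1 and 2.36 times in replicate 2, and 1.99 times for the means. The SD of log2 density among the 8 was 0.25 and 0.43, against 2.13 and 1.98 among the coding genes. Without Cct2 and Cct7, the genes with 1 annotated transcript, the ratio of highest to lowest was 1.39 and 1.41 and the SD of log2 density 0.18 and 0.20, a comparison chosen after the values were seen. The 6 subunits of prefoldin, which likewise join as 1 copy each, ranged over 3.05 times in replicate 1 and 3.23 times in replicate 2. With no test of the difference between the complexes, these ranges are descriptions.

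The ring has an uneven use of ATP: Tcp1, Cct2, Cct4 and Cct5 lie on the side known for strong ATP binding, and Cct3, Cct6a, Cct7 and Cct8 on the opposite side. The median density of the strong side was 195 in replicate 1 and 206 in replicate 2. The weak side had 238 and 260. The sides overlapped in both replicates, since Tcp1 on the strong side lay above Cct7 on the weak side in each.

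The footprints of most subunits were spread over many annotated transcripts. The 8 genes had 53 transcripts: 10 each for Tcp1, Cct3 and Cct8, 9 for Cct4, 7 for Cct6a, 5 for Cct5 and 1 each for Cct2 and Cct7. Protein-coding transcripts held 59.3% ± 2.70 of the footprints of the 8 genes (SD, n = 2), retained-intron transcripts 23.3% ± 2.97, processed transcripts 12.3% ± 0.381 and transcripts marked for nonsense-mediated decay 5.204% ± 0.113. Exons are shared between the classes, and how the authors placed fragments that match several transcripts is not given in the sources used here.

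The share on protein-coding transcripts was 53.5% ± 1.499 for Tcp1, 55.8% ± 0.121 for Cct4, 58.6% ± 1.67 for Cct3, 63.6% ± 1.55 for Cct5 and 68.8% ± 2.57 for Cct8 (SD, n = 2 for each). Cct2 and Cct7 had a single coding transcript each, Cct2-201 and Cct7-201, so all of their footprints lay there. Cct6a stood apart from the rest, because none of its 7 transcripts was annotated as coding. Its processed transcripts held 79.3% ± 2.48 of its footprints and its retained introns 20.7% ± 2.48, although the gene as a whole had the second highest mean density.

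In Tcp1, Cct3 and Cct4 a retained intron stood beside the leading coding transcript. Tcp1-003, a coding transcript, led its gene by mean count with 200 and 548 footprints. The coding transcript Tcp1-001 had 161 and 557, the most in replicate 2, while Tcp1-002, a retained intron, had 166 and 544. Cct3-001 led with 116 and 410, against 87 and 376 for the retained intron Cct3-002. For Cct4, Cct4-001 had 163 and 518 and the retained intron Cct4-003 had 81 and 264. Other transcripts of these genes without a coding sequence ran from 89 and 348 footprints for the retained intron Cct3-004 down to 3 and 9 for Cct3-010. Tcp1-005 had 9 and 25.

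Cct5 was more weighted to 1 coding transcript, while Cct8 was spread over several. Cct5-001 had 314 and 810 footprints, 48.7% ± 2.80 of its gene (SD, n = 2), and the retained intron Cct5-005 had 75 and 219. Cct8-001 had 192 and 575, 23.7% ± 0.593 of its gene, and Cct8-002, marked for nonsense-mediated decay, had 151 and 493. The most abundant Cct8 transcript without a coding sequence, Cct8-006, had 38 and 118. For Cct6a the leading transcript was Cct6a-001, with 283 and 733, followed by Cct6a-201 with 245 and 711. Pseudogenes named after subunits held little: Cct3-ps1 had 8 and 52 footprints and Tcp1-ps1 had 4 and 11.

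**Figure D2:**
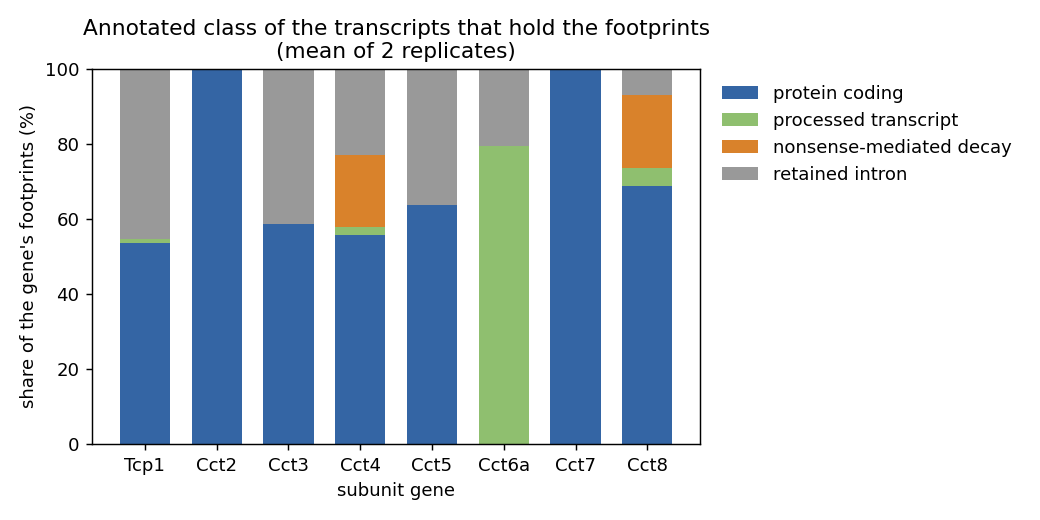
Share of each subunit gene's footprints (percent, mean of both replicates) by the annotated class of the transcript that holds them. Cct2 and Cct7 are wholly coding, Cct6a has no coding part, and the remaining genes have 53.5% to 68.8% on coding transcripts.

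Between the replicates, 3 of the 8 subunits differed beyond counting noise. The test was a two-sided exact binomial test of each gene's counts against the ratio of the library sizes after TMM scaling (trimmed mean of M values), adjusted by Benjamini-Hochberg over 16427 genes; over all of these 17.4% were called at 0.05, 5.95% as higher and 11.5% as lower in replicate 2. Cct7 was lower in replicate 2, with a log2 ratio of -0.67 (adjusted p = 5.03e-20), and so was Cct2, at -0.47 (adjusted p = 5.62e-07). Cct3 was higher in replicate 2, at 0.24 (adjusted p = 0.00166). The test compares 1 library with 1 other and covers counting noise alone. The edgeR exact test with the common dispersion, estimated from this same pair of libraries, called 0 of the 8 and 0.067% of all genes, and 0 of the 8 had an unadjusted p under 0.05 in it.

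The remaining 5 subunits were not called, with log2 ratios from -0.14 for Cct6a to 0.04 for Cct4. Under scaling by library totals, which moves every log2 ratio up by 0.13, the same 3 genes were called in the same directions, at -0.54 for Cct7, -0.34 for Cct2 and 0.37 for Cct3; over all genes 19% were then called, 11.5% as higher and 7.47% as lower. The log2 ratio of Tcp1, which was not called, was -0.01 under TMM and 0.12 under library totals. DESeq2 size factors (17.4% of all genes called) and no filter on low counts (9.93%) also gave 3 of 8. Cct2 and Cct7 alone were called with coding transcripts only (18.9% of all genes) and with each gene's highest transcript (9.41%). The called share of the members, 3 of 8, has to be read against genes of like abundance: among 696 other genes whose mean count lay within the range of the members, 742 to 1635, 54.7% were called.

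The direction of the replicate ratio went with the number of annotated transcripts, in the subunits and in the rest of the table; this comparison was chosen after the data were examined. The genes with 1 transcript, Cct2 and Cct7, had the lowest log2 ratios of the 8, at -0.34 and -0.54 with library totals. Cct5 and Cct6a, with 5 and 7 transcripts, stood at -0.01 and -0.02. Cct4, Tcp1, Cct8 and Cct3, with 9 or 10, stood at 0.17, 0.12, 0.14 and 0.37. The 3 sets of subunits did not overlap.

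Other genes of the same abundance were arranged alike. Among those with 1 transcript the median log2 ratio was -0.49 (76 genes), with 2 transcripts -0.25 (68 genes) and with 3 to 4 transcripts -0.16 (122 genes). With 5 to 8 transcripts the median was 0.04 (231 genes), and with 9 or more it was 0.22 (199 genes). Over all counts, where most genes are much lower, the 6263 genes with 1 transcript had a median of -0.02. All 8 subunits lay inside the middle 50% of the other genes in their own class. Of the 76 other genes with 1 transcript, 75 were called, 72 of them as lower in replicate 2.

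**Figure D3:**
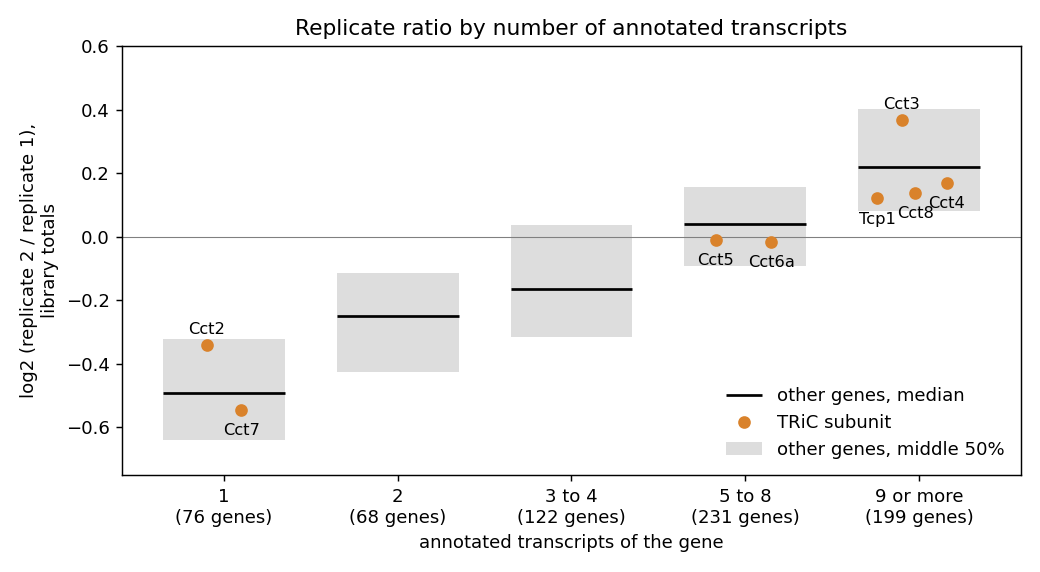
Log2 ratio of replicate 2 over replicate 1 (scaled by library totals) by the number of annotated transcripts of a gene; grey boxes span the middle 50% and black lines the median of the other genes whose mean count lies within the range of the subunits, and orange points are the TRiC subunits. The medians climb from -0.49 at 1 transcript to 0.22 at 9 or more, and each subunit lies inside the box of its class.

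When each gene's ratio was set against the median of genes with a like number of transcripts and a like count, 0 of the 8 subunits were called by the exact binomial test, against 10.1% of all genes, and 1 of them, Cct3, had an unadjusted p under 0.05. The log2 ratios were then 0.12 for Cct2, -0.08 for Cct7 and 0.16 for Cct3, with adjusted p of 0.403, 0.526 and 0.103, and the Cct2 value had turned in sign. The part of transcript number itself, as against other features of such genes, was not tested. Whether identical fragments were removed before counting is not given in the sources used here, so densities of genes with 1 transcript and with many, those of Cct2 and Cct7 included, may not be on the same footing.

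Of the partners, prefoldin was translated at a level near that of TRiC. The 6 prefoldin genes had a median density of 249 in replicate 1 and 218 in replicate 2, close to that of the chaperonin. Pfdn5 had a density of 318 and 391, Pfdn6 339 and 329, and Pfdn2 340 and 250. Pfdn4 had 138 and 187, Pfdn1 180 and 143, and Vbp1, which encodes prefoldin subunit 3, 111 and 121. Pfdn2, Pfdn5 and Pfdn6 were the higher members in both replicates and overlapped with none of the others. Pfdn2 (log2 ratio -0.57, adjusted p = 1.62e-06) and Pfdn1 (-0.45, adjusted p = 0.0294) were called by the exact binomial test, both as lower in replicate 2.

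Over all partner, client and related genes, 25 of the 51 tested were called between the replicates, with 17.4% of all genes as background. That background is not matched for count: among 696 other genes in the count range of the subunits, 54.7% were called. The 25 are thus not read as an excess. With library totals 8 of the 25 were no longer called (Pfdn1, Tbcb, Tbcc, Tbcd, Gnb1, Fzr1, Hspd1 and Hspe1), and 6 others became so. After the shift for transcript number and count, 10 of the 25 were not called (Pfdn1, Tbca, Tbcb, Tbcc, Tubb4b, Tubb6, Gnb5, Fzr1, Hspd1 and Hspe1). The calls among these genes numbered 23 with no filter on low counts (9.93% of all genes) and 22 with coding transcripts only (18.9%). They numbered 17 with the highest transcript alone (9.41%). The edgeR exact test called 0 of the 51 tested, and 10 had an unadjusted p under 0.05 in it.

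Phosducin-like cofactors mostly lay below the chaperonin. Txndc9, a thioredoxin-like inhibitor of its ATP use, had a density of 106 and 172, Pdcl3 had 93.4 and 108, and Pdcl, which assists the folding of G protein beta subunits, had 52.03 and 78.03. Txndc9 (log2 ratio 0.57, adjusted p = 2.85e-04) and Pdcl (0.45, adjusted p = 0.0407) were called as higher in replicate 2 by the exact binomial test. With the highest transcript alone neither was called (adjusted p of 0.180 and 0.577 in the same exact test), and with no filter on low counts Pdcl was not (adjusted p = 0.0633). Pdcl2, known from the male germ line, had no footprint in either library, where 3 counts would have been a density of 2.22 in replicate 1 and 0.789 in replicate 2.

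Tubulin cofactors take folded tubulin from TRiC and join alpha with beta chains. Tbcb had the highest mean density of the list, 238 and 203, and Tbce the lowest, 20.4 and 27.8. Of the 6 genes, Tbca, Tbcb, Tbcc and Tbcd were called as lower in replicate 2 and none as higher, against 11.5% of all genes called as lower. Their log2 ratios ran from -0.53 to -0.36, and Tbca and Tbcc have 1 annotated transcript. With library totals only Tbca was called, and after the shift for transcript number and count only Tbcd. Tbca and Tbcb, which bind single beta and alpha chains, were thus translated at the level of the TRiC subunits.

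Actins and the major tubulins were translated far above the chaperonin. Of the remaining clients, Gnb1 and Gnb2 (703 in replicate 1 and 740 in replicate 2) also lay above it. The genes listed as other clients lay below it. Actb had a density of 3146 and 2043 and Actg1 2343 and 1745. Among 13 tubulins, Tuba1a was highest at 2081 and 1211 and Tuba8 lowest at 7.14 and 6.76. Actins and tubulins are near-identical within each family, so counts of single members are uncertain. Their summed density was 71.8 times the median TRiC density in replicate 1 and 43.5 times in replicate 2, or 57.7 ± 20.04 (SD, n = 2).

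Both actins and 10 of the 13 tubulins (Tuba1a, Tuba1b, Tuba1c, Tubb2a, Tubb2b, Tubb3, Tubb4a, Tubb4b, Tubb5 and Tubb6) were called as lower in replicate 2 by the exact binomial test, and none as higher, against 17.4% of all genes called. Tuba4a was called as higher with library totals (0.25, adjusted p = 0.00223) and after the shift for transcript number and count (0.19, adjusted p = 0.0484), and Tubb4b and Tubb6 were not called after that shift, all in the same exact test. Of the 13 tubulins 7 have 1 annotated transcript, a class in which 98.7% of the other genes in the count range of the subunits were called. The log2 ratios of the called genes ran from -1.06 for Tubb2a to -0.52 for Tubb4b. The median log2 ratio was -0.81 over the tubulins and -0.07 over the 8 TRiC subunits, and with library totals -0.68 and 0.06. Tubulins were thus lower relative to TRiC in replicate 2. Scaling moves all log2 ratios alike, so the second scaling could not change this distance and adds no support. After the shift the medians were -0.23 and -0.07, a smaller distance, while that of the 2 actins was -0.65 before it and -0.74 after it. The summed CPM of neuron markers, among them Tubb3, was also lower in replicate 2 (6217 and 4676), that of astrocyte markers was 3386 and 2767, and that of oligodendrocyte markers was higher (531 and 734). Their part in the result was not tested. With TMM scaling, over the 16419 tested genes that are not subunits the median was 0.01.

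G protein beta subunits, beta-propeller clients of TRiC, ranged from Gnb1 at 948 and 937 to Gnb3, a cone and taste cell gene, at 4.19 and 3.72. Their summed density was 8.61 and 8.47 times the TRiC median, or 8.54 ± 0.104 (SD, n = 2). Gnb1 (log2 ratio -0.14, adjusted p = 0.00348) and Gnb5 (-0.49, adjusted p = 0.00335) were called as lower in replicate 2 by the exact binomial test. With library totals the Gnb1 value was -0.02 and not called, and after the shift the Gnb5 value, from a gene with 1 transcript, was -0.14 (adjusted p = 0.594 in the same exact test).

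The 9 other clients, among them cell cycle and signalling proteins, had a median density of 33.9 and 31.8. Fzr1, an activator of the anaphase-promoting complex that stays on in neurons, was highest at 128 and 117, and was the 1 member called, as lower in replicate 2 (log2 ratio -0.25, adjusted p = 0.0377 in the exact binomial test). Wrap53, a telomerase and Cajal body protein, was lowest at 6.37 and 8.80.

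Relatives of the subunits were scarce. Cct6b, the testis paralogue of Cct6a, had 0 and 2 footprints, and Cct8l1 had none in either library, where 3 counts would have been a density of 0.951 in replicate 1 and 0.338 in replicate 2. The chaperonin-like genes linked to Bardet-Biedl syndrome were low: Mkks had a density of 12.2 and 18.5, Bbs10 1.25 and 2.84, and Bbs12 0.756 and 3.04. None of these 3 was called with TMM scaling, and Bbs12, with 3 and 34 footprints, was called as higher with library totals.

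The mitochondrial chaperonin belongs to the other class of folding rings. Hspd1, which forms the ring, had a density of 130 and 119, and Hspe1, its lid, 309 and 250. Both were called as lower in replicate 2, at log2 ratios of -0.25 (adjusted p = 0.0211) and -0.43 (adjusted p = 0.0107) in the exact binomial test. Hspd1 lay below all 8 TRiC subunits in both replicates. The heat shock factors, known activators of chaperone genes, were at 8.86 and 6.03 for Hsf1 and 28.3 and 34.9 for Hsf2, and neither was called.

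**Figure D4:**
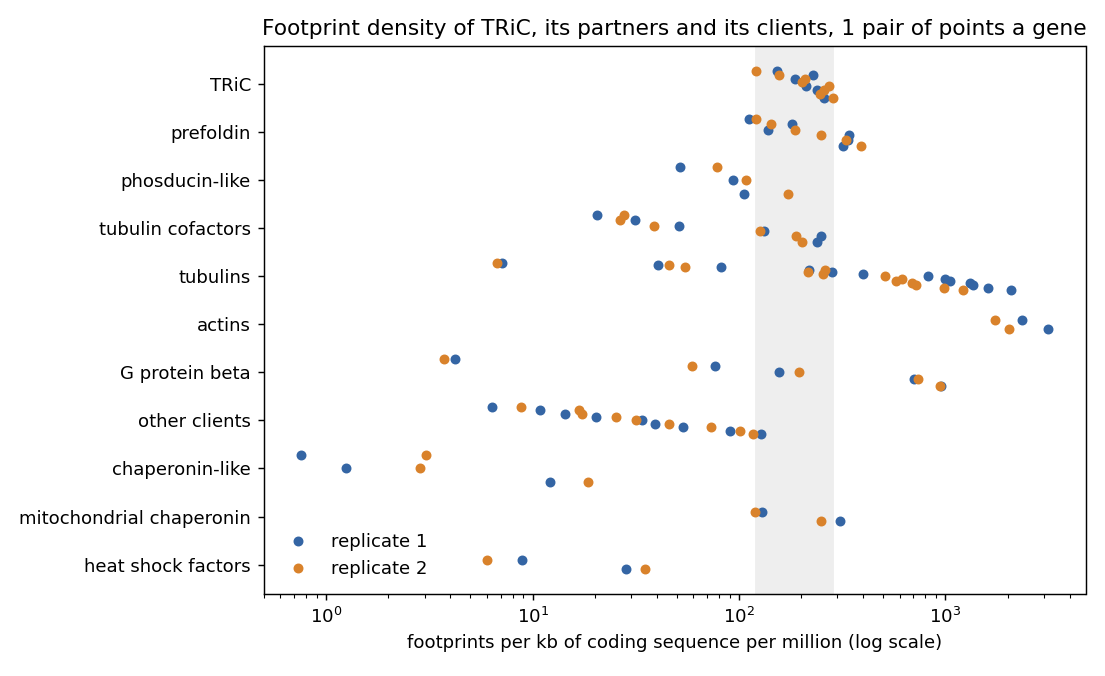
Footprint density (CPM per kilobase of coding sequence, log scale) of the TRiC subunits, their partners, clients and relatives, with 1 blue point (replicate 1) and 1 orange point (replicate 2) for each gene; the grey band spans the lowest to the highest TRiC value, and Pdcl2, Cct6b and Cct8l1 are not drawn because a count was 0. The TRiC subunits form the narrow band from 121 to 285, with prefoldin around it and G protein beta genes on both sides of it. Actins and most tubulins lie above it, and the phosducin-like genes and those listed as other clients mostly below it.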

How the data were processed

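Per the labels' protocols, brain lysates were separated on a sucrose gradient, polysome fractions were treated with RNase I, and fragments of 25 to 35 nucleotides were sequenced. The submitters' processing notes name Trimmomatic 0.36, Bowtie2 2.2.6, SAMtools and build GRCm38.p4; the annotation release, strand use and the treatment of duplicates and of fragments with several matches are not given in the sources used here. The authors deposited raw counts per transcript, 1 column per replicate, beside annotated lengths.

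Counts were summed per gene identifier. Density used the longest annotated coding sequence, except for Cct6a, which has none and was given the length of Cct6a-201. TMM factors (edgeR 4.0.16) were 0.957 and 1.04. Tests (SciPy 1.17.1) covered genes whose mean count reached 10. Log2 ratios used a prior of 0.5 CPM. No quasi-likelihood test could be fitted, as there is 1 group. Whether the deposited counts hold PCR copies is thus unknown, and intervals, floors of 3 counts and p-values hold for counting error only. DESeq2 1.42.0 gave size factors as an alternative. The analysis code was tested on simulated data.

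Named were all subunits and prefoldin genes and, of each other list, the highest, the lowest and every called member. Gnb2 was named as well, for its level above the chaperonin. The members and lists were chosen with earlier results of these data known. Protein sequences were not used here.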

Additional observations from a re-analysis of the deposited data

How the results depend on the processing

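No paired analysis was possible because both samples belong to 1 group. Leaving out a replicate gave a ratio of highest to lowest density from 1.69 to 2.36, a median density of the subunits from 219 to 228, and no test. The choice that changed the picture most was the highest transcript alone: the ratio of highest to lowest became 4.41, with Cct7 highest and Cct3 lowest, and the median density 131. It keeps all footprints of Cct2 and Cct7 and only a part of those of the others, so their rise was built in. With coding transcripts only the median density was 186 (7 subunits, since Cct6a has none), with Cct8 highest and Cct5 lowest. That setting kept transcripts marked for nonsense-mediated decay, 19.4% of the footprints of Cct8 and 19.0% of those of Cct4. The order on protein-coding transcripts alone was not tested. The median density was also 172 with whole transcript lengths (Cct6a, whose length stayed as it was, then highest), 211 without Cct6a and 239 without Cct2 and Cct7. Leaving out those last genes gave a ratio of highest to lowest of 1.37. The calls were 3 of 8 with TMM (17.4% of all genes), library totals (19%), DESeq2 size factors (17.4%) and no filter (9.93%). They were 2 of 7 with coding transcripts only (18.9%) and 2 of 8 with the highest transcript alone (9.41%). Cct3 was not called in either of these. With TMM, 54.7% of other genes in the count range of the subunits were called. The number of subunits called was 0 in edgeR's exact test (0 at an unadjusted p under 0.05) and 0 after the shift for transcript number and count (1 unadjusted), under which the log2 ratio of Cct2 was 0.12 in place of -0.47. Scaling by TMM or DESeq2 size factors changed no subunit's density by more than its replicate SD. Leaving out Cct6a, leaving out Cct2 and Cct7, and the shift were chosen after seeing the data. Depth limits the order of neighbours: in replicate 1 the 95% intervals of 16 of the 28 pairs were separate. Apart from what the highest transcript alone builds in, the cause of these changes was not tested.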
